A study of Rattus norvegicus with 6 samples.

Results

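The cytosolic ribosomal protein genes encode the proteins of the ribosome outside mitochondria. They were taken as every gene symbol made of Rps or Rpl, a number and at most a closing a or x, together with Rplp0, Rplp1 and Rplp2. This gave 75 of 29468 gene symbols, 30 of the small subunit and 45 of the large subunit, and the rule uses names and no measured value. The genes were compared between 3 samples of Schwann cell precursors (SCPs) and 3 samples of repair Schwann cells (RSCs). Both groups were wild type LEWIS rats. SCPs came from sciatic nerves and brachial plexus of both sides at embryonic day 14 and were not treated, and RSCs came from the distal part of cut sciatic nerves of rats 10 weeks old, 1 week after the cut. Age, source tissue, injury and dissociation differ together between the groups and cannot be told apart. Nothing in the labels ties a replicate number to a litter or animal, so p-values measure only the spread between these samples.

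The ribosome is built from ribosomal RNA and a single copy of most of its proteins, so the genes of both subunits are usually expressed at matched levels. The small subunit reads the mRNA and the large subunit joins amino acids. Many mRNAs of ribosomal proteins begin with a stretch of pyrimidines, the terminal oligopyrimidine or TOP motif, through which mTOR signaling adjusts their translation, and growing and dividing cells make ribosomes at a high rate.

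The start of the gene is shown for 10 members because this pyrimidine stretch, where a gene has it, lies at the start. The choice of the genes did not use it. The first 5 are among the members with the smallest difference between the groups or with the difference in the other direction, and the last 5 are among those with the largest. Each line gives 15 bases before and 15 bases from the annotated start in RefSeq on GRCr8, on the strand of the gene, with the longest run of C and T in capitals.
Rplp0, chr12:46718376-46718405, minus strand: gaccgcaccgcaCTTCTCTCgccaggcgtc
Rps18, chr20:4933730-4933759, plus strand: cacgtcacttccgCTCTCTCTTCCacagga
Rps10, chr20:5700730-5700759, minus strand: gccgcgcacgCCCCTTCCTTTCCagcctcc
Rpl10a, chr20:6390518-6390547, plus strand: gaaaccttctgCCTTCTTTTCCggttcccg
Rpl41, chr7:1563483-1563512, minus strand: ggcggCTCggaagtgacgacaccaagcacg
Rpl9, chr14:43247575-43247604, plus strand: gacgaaggacgTTCTCTCTTTgccccatct
Rpl3, chr7:113507976-113508005, minus strand: ccagcgcctgctcgaTCTCTatcggcggcg
Rpl36a, chrX:102059434-102059463, plus strand: ccgcctataaaCTTCCgttgctgctctagc
Rps6, chr5:106420526-106420555, minus strand: gacgCCTCCTaggcggtcggctgtgtcaag
Rpl36, chr9:1533765-1533794, plus strand: ctgTCCggccgccatcggaaagctgcaggt

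RefSeq promoters were matched by symbol for 60 of the 75 members. A run of at least 8 bases that were each C or T lay within 20 bases of the start in 44 of the 60 members (73.3%) and in 15.5% of all 33469 promoters in the table. The median log2 fold change, RSC minus SCP, was -0.56 for the 44 members with such a run and -0.64 for the 16 without it. Of the 10 members with the most negative log2 fold change, 8 had a promoter in the table and 2 of these held the run, Rpl9 and Rpl27a. At the other end, 9 of 10 had a promoter and 6 held the run. No test of this difference was made. The letters CCGGAAG, read on both strands of the 300 bases around the start, were present in 20 of the 60 members (33.3%) and in 8.75% of all promoters. The letters AAGATGGC were present in 5 of the 60 (8.33%) and in 3.17% of all promoters. These are matches of letters and say nothing of whether a factor binds there. Whether the annotated start is the one used in these cells was not tested.

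Levels are in FPKM, a count of fragments divided by transcript length and by the number of mapped fragments, summed by symbol. The 75 genes together reached 100793, 91831 and 95708 FPKM in SCP replicates 1, 2 and 3. In RSC replicates 1, 2 and 3 they reached 64567, 65520.4 and 69687 FPKM. Each SCP sample was above each RSC sample, and the group means were 96111 ± 4495 (SD, n = 3) in SCPs and 66592 ± 2723 (SD, n = 3) in RSCs, a ratio of 1.44. The ratio was 1.47 for the small subunit and 1.42 for the large subunit. In RNA from whole samples, fewer cells of a type and less RNA per cell cannot be told apart.

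**Figure D1:**
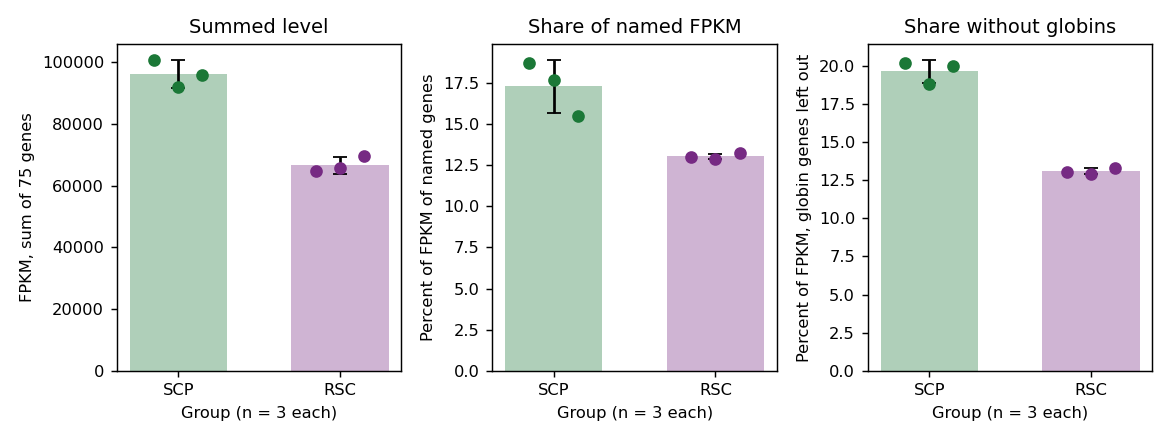
Summed FPKM of the 75 ribosomal protein genes (left), their percent of the FPKM of all named genes (middle) and the same percent with globin genes left out (right), by group. Points are samples, bars are group means and whiskers are SD (n = 3), and each SCP sample lies above each RSC sample in all 3 panels.

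Of the FPKM of all named genes, the members took 18.7%, 17.6% and 15.5% in SCPs and 12.98%, 12.9% and 13.2% in RSCs. The groups did not overlap, and the spread was wider in SCPs (17.3% ± 1.63, SD, n = 3) than in RSCs (13.03% ± 0.173, SD, n = 3). Globin genes, which carry oxygen in red blood cells, held 7.23%, 6.09% and 22.5% of named FPKM in SCPs and 0.387% to 0.504% in RSCs. SCP replicate 3, the sample with the highest globin share, had the lowest ribosomal protein share of its group. With the globin genes left out of the total, the members' share was 20.2%, 18.8% and 20.02% in SCPs and 13.05%, 12.9% and 13.3% in RSCs. The ratio of mean shares was then 1.502, the largest of those computed. It was 1.33 with globins in the total, 1.37 without the top 100 other genes and 1.29 with unnamed transcripts added. Over the FPKM of all transcripts it was 1.19. Transcripts without a gene name held 31.9%, 27.9% and 26.1% of all FPKM in SCPs and 23.4%, 18.8% and 18.6% in RSCs.

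Of the 75 members, 63 (84%) were higher in SCPs at an unadjusted p under 0.01 in limma on log2(FPKM + 1), and 0 were higher in RSCs at that threshold. Across all 13003 genes tested, 22.4% passed toward SCPs and 18.1% toward RSCs. All members are abundant, and of the 681 other genes averaging 100 FPKM or more, 38.5% passed toward SCPs. After Benjamini-Hochberg adjustment over all genes, 67 members were higher in SCPs at an adjusted p under 0.05 and again 0 were higher in RSCs. The share of all genes at that limit was not counted. None of the members passed both p under 0.01 and a difference over 4-fold, a pair of limits that 3.78% of all genes passed toward SCPs. The differences were thus frequent and small, with a median SCP over RSC ratio of 1.49.

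Each SCP value lay above each RSC value in 69 of the 75 members (92%), against 33.7% of all genes tested and 45.1% of those 681 abundant genes. The groups overlapped in Rpl26, Rpl5, Rplp1, Rpl30 and Rps18. Rplp0 alone had each RSC value above each SCP value. The small subunit had 28 of 30 genes higher in SCPs and the large subunit 35 of 45, with median log2 fold changes of -0.61 and -0.55.

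The median log2 fold change of the members was -0.56, with quartiles of -0.71 and -0.46. The median of all genes tested was -0.17, and the median of the 681 other abundant genes was -0.16, so the members lay 0.39 below the median gene. Of the 75 members, 71 lay below the median gene and 4 above it. When each sample was scaled by the median of ratios over genes, which moved the median of all genes to 0.02, the members' median was -0.35. Under that scaling 48 members were higher in SCPs, with 16.8% of all genes called in that direction, and 1 member, Rplp0, was higher in RSCs.

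**Figure D2:**
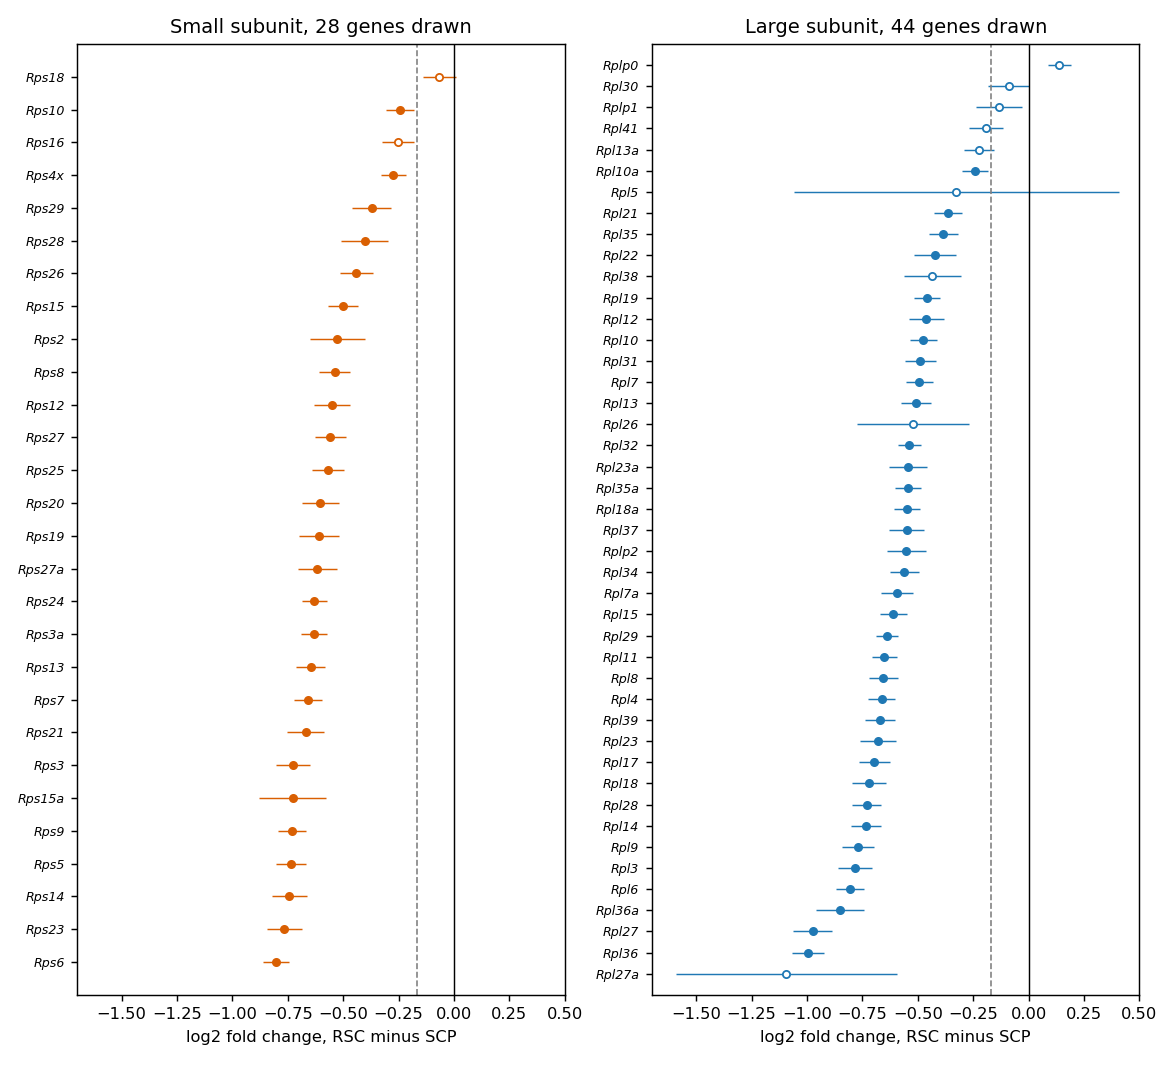
Log2 fold change, RSC minus SCP, of genes of the small subunit (left) and of the large subunit (right), with the standard error from limma (3 samples per group). Filled points have p under 0.01, open points do not, the solid line is 0, the dashed line is the median of all genes tested, and Rpl24 at -5.91 lies outside the axis. Rpl24 and 2 genes of the small subunit are not drawn.

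The genes of the 3 stalk proteins are given first. Rplp0 anchors the stalk of the large subunit, the arm that recruits elongation factors. It lies at chr12:46791528-46794797 on rn6. Its level was 1189, 1124 and 1131 FPKM in SCPs and 1265, 1232 and 1296 FPKM in RSCs. All RSC values were above all SCP values, but the log2 fold change of 0.14 ± 0.05 (SE) did not pass the threshold (limma, adjusted p = 0.080). Under median-of-ratios scaling it was 0.35 and passed.

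Rplp1 and Rplp2 form the acidic dimers that bind to Rplp0. Rplp1 was listed at 2394, 2117 and 2295 FPKM in SCPs and at 2244, 2178 and 1801 FPKM in RSCs, and the groups overlapped. Rplp2 was listed at 1191, 1096 and 1235 FPKM in SCPs and at 790.1, 733 and 881 FPKM in RSCs, with each SCP sample above each RSC sample. The log2 fold change was -0.13 ± 0.10 (SE) for Rplp1 (limma, adjusted p = 0.33) and -0.55 ± 0.09 (SE) for Rplp2 (limma, adjusted p = 0.0038). The direction of Rplp1 flipped to 0.08 under median-of-ratios scaling, and Rplp2 was at -0.34 and did not pass. RSC replicate 3 held a further 859 FPKM in unnamed transcripts at Rplp1, 2660.0 FPKM in all, and with unnamed transcripts added the log2 fold change was 0.05. Whether Rplp1 and Rplp2 differ from each other was not tested.

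Rps18, a protein of the head of the small subunit, and Rpl30 of the large subunit were also close between the groups. Rps18 was at 1527, 1421 and 1375 FPKM in SCPs and 1324, 1331 and 1476 FPKM in RSCs. Rpl30 was at 743, 689 and 614 FPKM in SCPs and 675, 597 and 644 FPKM in RSCs. In both genes the groups overlapped, with log2 fold changes of -0.07 and -0.09 that became 0.15 and 0.12 under median-of-ratios scaling. Rpl41, a very short basic peptide of the large subunit, had the highest mean level of the 75. It was listed at 4065, 3470 and 3732 FPKM in SCPs and 3196, 3223 and 3419 FPKM in RSCs, without overlap. Its log2 fold change of -0.19 ± 0.08 (SE) did not pass (limma, adjusted p = 0.082) and was 0.02 under median-of-ratios scaling.

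Small differences were also seen for Rpl13a, Rps10, Rpl10a, Rps16 and Rps4x, a form of the small subunit protein S4. The tables place Rps4x at chr4:35729619-35730512 on rn6, a span equal to its transcript of 894 bases and so without introns, whereas RefSeq has the gene on chromosome X, and the values are those of the listed locus. Their log2 fold changes ran from -0.22 to -0.27, with each SCP value above each RSC value. Rps10, Rpl10a and Rps4x passed the threshold, and Rpl13a and Rps16 did not. None of these 5 genes passed under median-of-ratios scaling. With unnamed transcripts at their loci added, Rpl13a was at -0.41 and passed, and Rps16 was at -0.10, with RSC replicate 1 at 1845 FPKM above each SCP value.

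The largest differences with a narrow spread were in large subunit genes. Rpl36, at chr9:10441228-10441981 on rn6, was at 1712, 1488 and 1570.1 FPKM in SCPs and 759, 809 and 816 FPKM in RSCs. Rpl27 was at 1705, 1564 and 1827 FPKM in SCPs and 836, 814 and 939.6 FPKM in RSCs. Both were far apart between the groups, and these were log2 fold changes of -0.998 ± 0.072 (SE) for Rpl36 (limma, adjusted p = 0.00019) and -0.98 ± 0.09 (SE) for Rpl27 (limma, adjusted p = 0.00040). Rpl36a, whose protein lies near the exit site for tRNA, was at 395, 319 and 318 FPKM in SCPs and 198, 177 and 194 FPKM in RSCs, without overlap and with a log2 fold change of -0.85. Rpl6, Rpl3 and Rpl9 fell by 0.81, 0.78 and 0.77 on the log2 scale in RSCs, and Rpl3 is needed early in the assembly of the large subunit.

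Rps6, the small subunit protein phosphorylated by S6 kinase below mTOR, was at 621, 594 and 580.5 FPKM in SCPs and 343, 332 and 351 FPKM in RSCs. The groups were well apart, with a log2 fold change of -0.80 ± 0.06 (SE) and an adjusted p of 0.00018 in limma. Rps6 passed under median-of-ratios scaling as well, as did Rpl36, Rpl27, Rpl36a, Rpl6, Rpl3 and Rpl9.

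Rpl41, Rps12, Rps29 and Rplp1 were the 4 members with the highest mean level. Rps12 was at 3022, 2669 and 2860.0 FPKM in SCPs and 1829, 1897 and 2120 FPKM in RSCs, with a log2 fold change of -0.55. Rps29 was also higher in SCPs, with a log2 fold change of -0.37, but was at -0.16 and did not pass under median-of-ratios scaling. The mean level over the 6 samples ran from 122 FPKM in Rps27a to 3517 FPKM in Rpl41, and 38 of the 75 members were above 1000 FPKM. Rps27a is listed at chr5:138628482-138629026 on rn6, a span equal to its transcript of 545 bases, whereas RefSeq has the ubiquitin fusion gene of that name on chromosome 14, so its level is that of an intronless locus. Of 60 members compared, 3 (Rpl35a, Rps27a and Rps4x) were listed on another chromosome than in RefSeq. FPKM is scaled by transcript length, but such copies and unnamed transcripts limit a comparison of levels between genes.

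**Figure D3:**
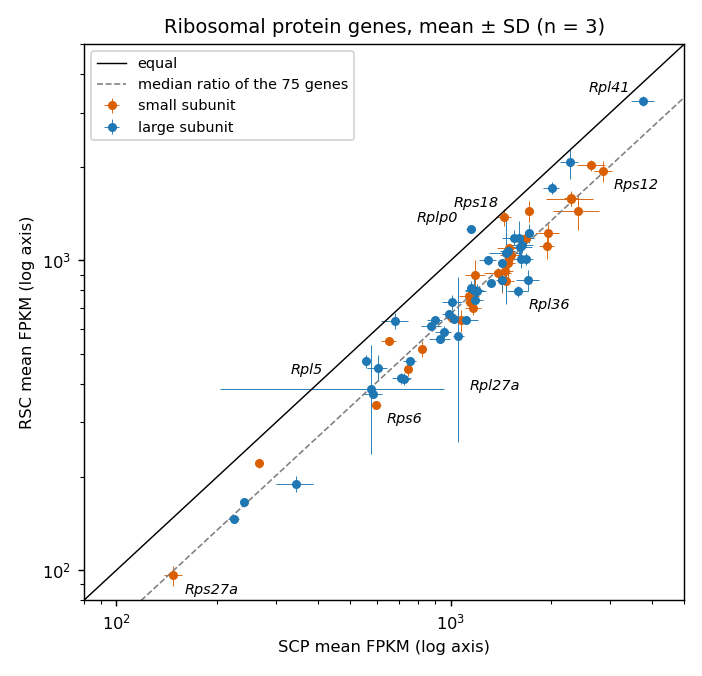
Mean FPKM in SCPs against mean FPKM in RSCs on log axes, with SD (n = 3) as whiskers, for the members above 80 FPKM in both groups. The solid line marks equal levels, the dashed line the median ratio of 1.49, and Rplp0 is the only point above the solid line.

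The order of the levels was similar in both groups, with a Spearman rho of 0.95 over the 75 members, which share the same libraries. The median over members of the larger coefficient of variation within a group was 6.83%, and 4 members were above 20%. SCP replicate 1 held the highest SCP value in 54 of the 75 members, and RSC replicate 3 the highest RSC value in 56. Within a group, most members thus had their highest value in the same sample. Across members, the log2 fold change had a Spearman rho of -0.16 with transcript length and 0.28 with mean FPKM.

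The members with a wide spread also had transcripts without a gene name at their locus, which Cufflinks assembled separately in each sample. Each was given to the named symbol whose locus it overlapped most under the same Cufflinks gene identifier. Whether it is RNA of that gene was not tested. Adding them narrowed the spread of Rpl24 and Rpl5 but widened that of Rpl27a in RSCs. In Rpl26 the sample with the lowest RSC value became the highest of its group. Rpl24, a large subunit protein at a bridge to the small subunit, was listed under its name at 392, 73.2 and 412 FPKM in SCPs and at 54.8, 0 and 0 FPKM in RSCs. With the unnamed transcripts at its locus added, it was at 561, 551 and 539 FPKM in SCPs and 465, 442 and 482 FPKM in RSCs. The groups did not overlap either way, but the log2 fold change moved from -5.91, which did not pass the threshold, to -0.25, which did. Rpl5 carries the 5S ribosomal RNA into the large subunit together with Rpl11. It was listed at 825, 763 and 148 FPKM in SCPs and 467, 213 and 475 FPKM in RSCs, where SCP replicate 3 and RSC replicate 2 stood low in their groups. With the unnamed transcripts it was at 825, 763 and 795 FPKM in SCPs and 467, 482 and 475 FPKM in RSCs, and the log2 fold change went from -0.33 to -0.74, past the threshold. Rpl11 itself fell by 0.65 on the log2 scale.

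Rpl27a was at 1101, 1029.9 and 1030.0 FPKM in SCPs and at 214, 705 and 793 FPKM in RSCs, where replicate 1 stood low. That replicate held 2954 FPKM in unnamed transcripts at the locus. The log2 fold change of -1.09 became 0.20 with these added and -0.49 without RSC replicate 1, which then passed the threshold. Rpl26 was at 1306, 1459 and 1627 FPKM in SCPs and 684, 1167 and 1309 FPKM in RSCs, with 482 FPKM unnamed in SCP replicate 1 and 1263 FPKM unnamed in RSC replicate 1. With these added, RSC replicate 1 was at 1947 FPKM, above each SCP value, and Rpl26 did not pass either way. In all, 11 members had an unnamed transcript at their locus in at least 1 sample. With unnamed transcripts added for all genes, 65 members were higher in SCPs and the median of all genes was -0.24. The share of all genes called in that fit was not counted.

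**Figure D4:**
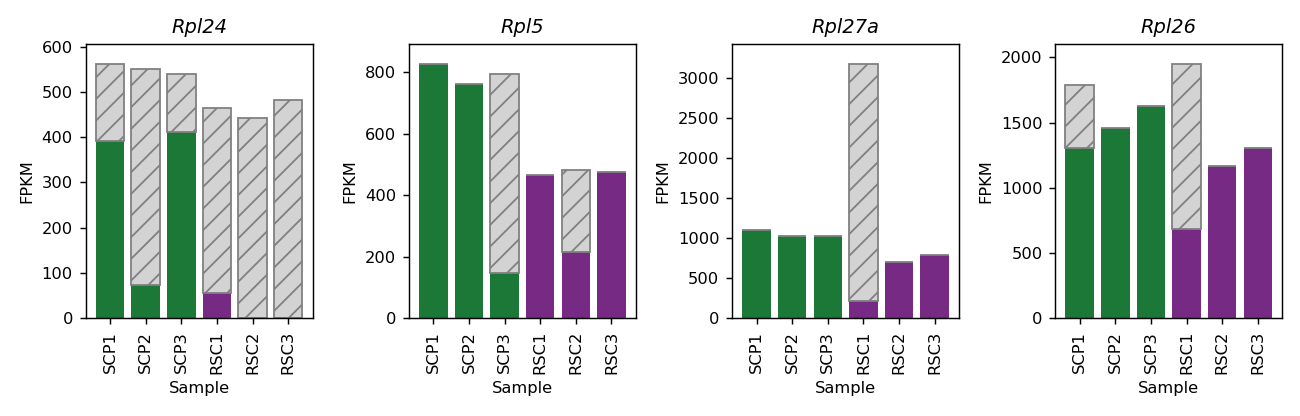
FPKM of Rpl24, Rpl5, Rpl27a and Rpl26 in each sample, with the named transcripts in solid color (green for SCP, purple for RSC) and unnamed transcripts at the same locus hatched on top. The full bars of Rpl24 and Rpl5 are level within each group, and the bar of Rpl27a in RSC replicate 1 reaches 3167 FPKM.

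The tables list 61 of the members as 1 transcript and 14 as more. The split between transcripts was much the same in both groups for Rpl6, whose main transcript of 932 bases held 74.3%, 75.3% and 79.7% of its FPKM in SCPs and 76.9%, 74.3% and 81.0% in RSCs. For Rps24, the transcript of 466 bases held 57.8%, 52.5% and 57.9% in SCPs and 60.5%, 71.9% and 64.1% in RSCs. The RSC values for Rps24 were all above the SCP values, and the difference was not tested. Ribosomal protein genes have many processed pseudogenes, and RefSeq names 821 after these members, with a median of 11 per member and 34 for Rps2. How reads shared with such copies were divided is not stated, so single levels are uncertain to that extent.

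Paralogs and fusion genes outside the rule were 11 genes tested, of which 5 were higher in SCPs and 0 in RSCs, with a median log2 fold change of -0.42. Under median-of-ratios scaling 1 of the 11, Rpl22l1, was higher in SCPs. Rpl22l1, a paralog of Rpl22, was at 150.0, 137 and 123 FPKM in SCPs and 42.4, 38.5 and 52.0 FPKM in RSCs. The groups were far apart, and its log2 fold change of -1.61 ± 0.14 (SE) had an adjusted p of 0.00034 in limma. Rpl22 was at -0.42 on the same scale. Rpl7l1, at -0.78, Rpsa, a small subunit protein also known as a laminin receptor, at -0.42, and Fau, a fusion that holds a small subunit protein, at -0.28, passed as well.

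The other paralogs did not pass. Rps4y2 was at 36.7, 50.1 and 65.0 FPKM in SCPs and 10.4, 0 and 10.0 FPKM in RSCs, without overlap, and with unnamed transcripts added its log2 fold change was -1.64 and passed. Rps27l was at 69.3, 22.4 and 47.4 FPKM in SCPs and 72.4, 85.1 and 81.6 FPKM in RSCs, with each RSC value above each SCP value and a log2 fold change of 0.91, or 0.22 with unnamed transcripts. Rpl36al, at 0.18, Rpl39l, at 0.70, Rps19l1, at -0.47, and Rpl10l, at -0.16, were the rest.

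Genes that act with the ribosome were counted in the same fit by list, and some genes are in several lists. Under median-of-ratios scaling the number higher in SCPs was 14 of 40 initiation factors, 2 of 11 elongation and termination factors, 7 of 19 other genes with TOP RNAs, 28 of 90 biogenesis genes, 9 of 32 polymerase genes and 8 of 71 mitochondrial ribosome genes. All these counts were lower than without that scaling, as was the share of all genes, at 16.8% with it and 22.4% without. Of 40 initiation factors, 24 were higher in SCPs and 0 in RSCs, with a median log2 fold change of -0.56. Eif3d, a subunit of the factor that holds the small subunit during initiation, was at 131, 124 and 111 FPKM in SCPs and 56.0, 53.9 and 58.7 FPKM in RSCs, a log2 fold change of -1.10. Eif2s3y, a Y-linked subunit of the factor that brings the initiator tRNA, was at 3.43, 8.55 and 3.98 FPKM in SCPs and listed at 0 in all 3 RSC samples. Whether the groups differ in sex was not tested. Of 11 elongation and termination factors, 4 were higher in SCPs and 0 in RSCs, with a median of -0.36. Eif5a, which helps the ribosome through stalling stretches, and Eef1g, part of the exchange factor for elongation factor 1, fell by 1.03 and 0.92 on the log2 scale in RSCs.

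Among 19 other tested genes whose RNAs carry the TOP motif, 10 were higher in SCPs and 1 in RSCs, with a median of -0.59. Of these 10, Eef1g, Eif3e, Eif3h, Eif4b and Npm1 were also counted among the elongation factors, initiation factors or biogenesis genes. Gas5, a noncoding host of small nucleolar RNAs, fell by 1.07 on the log2 scale in RSCs, but was at 0.03 and did not pass with unnamed transcripts added. Vim, the intermediate filament vimentin, was at 575, 612 and 621 FPKM in SCPs and 5974, 3894 and 3796 FPKM in RSCs, a log2 fold change of 2.88. Of 90 genes of ribosome biogenesis, 41 were higher in SCPs and 2 in RSCs, with a median of -0.70. Npm1, a nucleolar chaperone, was at 1162, 989 and 1011 FPKM in SCPs and 252, 241 and 259.7 FPKM in RSCs, with a log2 fold change of -2.06 ± 0.08 (SE) and an adjusted p of 3.0e-05 in limma. Gnl3, the nucleolar GTPase nucleostemin, followed at -1.91, or -1.05 with unnamed transcripts. The 2 genes higher in RSCs were Sbds, which helps release a factor from the new large subunit, at 1.74, or 0.78 with unnamed transcripts, and Utp18, of the small subunit processome, which was listed at 0 in all 3 SCP samples and at 3.68, 5.76 and 6.62 FPKM in RSCs.

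Of 32 genes of RNA polymerases I and III, which transcribe ribosomal and transfer RNA, 14 were higher in SCPs and 0 in RSCs, with a median of -0.68. Taf1d and Taf1c, subunits of the selectivity factor of RNA polymerase I, were at -1.40 and -2.40, and with unnamed transcripts Taf1c was at -0.40 and did not pass. Of 19 genes of the mTOR and Myc pathways, 0 were higher in SCPs and 2 in RSCs, with a median of 0.03. Myc, a transcription factor that drives ribosome production, was at 9.17, 9.73 and 14.0 FPKM in SCPs and 33.2, 37.9 and 27.4 FPKM in RSCs, a log2 fold change of 1.51 ± 0.20 (SE) with an adjusted p of 0.0019 in limma. Mxd4, a partner of Max that opposes Myc, was at 0.61. Of 71 proteins of the mitochondrial ribosome, 13 were higher in SCPs and 1, Mrpl33, in RSCs, with a median of -0.31. Mrpl17 and Mrpl37 were at -1.73 and -1.26, and with unnamed transcripts Mrpl17 turned to 0.26 and did not pass. The share called higher in SCPs, 18.3%, was below the 22.4% of all genes.

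**Figure D5:**
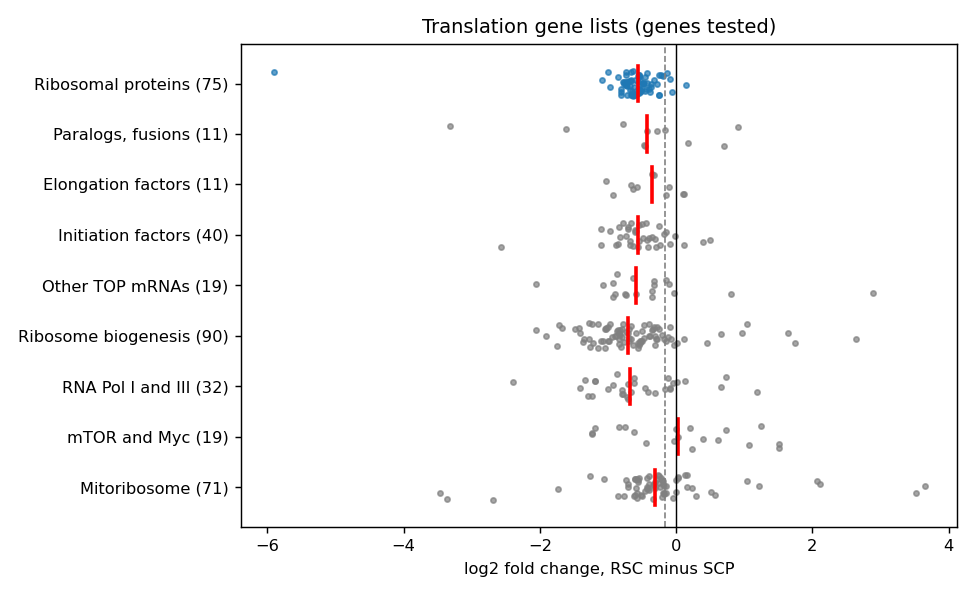
Log2 fold change, RSC minus SCP, of each tested gene in the ribosomal protein genes and in 8 lists of genes of translation, with the number of genes tested in parentheses. Some genes are in several lists. Red bars are medians, the solid line is 0 and the dashed line is the median of all genes tested. The ribosomal protein genes have a median of -0.56 and quartiles of -0.71 and -0.46, and range from -5.91 to 0.14.

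Markers of cell types moved with the groups. Sox10, a transcription factor of the Schwann cell lineage, was at 179, 175 and 181 FPKM in SCPs and 149, 143 and 143 FPKM in RSCs, and S100b, a marker of later Schwann cells, was at 3.21 to 19.3 FPKM in SCPs and 782 to 924 FPKM in RSCs. Schwann cell markers summed to 455 to 516 FPKM in SCPs and 1914 to 2441 FPKM in RSCs, with 1 of 9 tested higher in SCPs and 5 in RSCs. Red blood cell markers summed to 31778 to 139467 FPKM in SCPs and 1978 to 2635 FPKM in RSCs, with 11 of 15 tested higher in SCPs and the embryonic globins Hbe1 and Hbz listed at 0 in RSCs. Leukocyte markers summed to 21.3 to 55.6 FPKM in SCPs and 3080 to 3324 FPKM in RSCs, with 14 of 15 tested higher in RSCs and Cd3e listed at 0 in SCPs. Fibroblast markers summed to 661 to 1029 FPKM in SCPs and 5377 to 8023 FPKM in RSCs, with 6 of 8 higher in RSCs. For endothelial markers 2 of 8 were higher in RSCs, with sums of 46.2 to 76.1 FPKM in SCPs and 114 to 127 FPKM in RSCs. For muscle markers 6 of 7 were higher in SCPs and 1 in RSCs, with sums of 43.3 to 120 FPKM in SCPs and 26.5 to 32.3 FPKM in RSCs, and for neuron markers 2 of 6 were higher in SCPs, with sums of 34.99 to 62.1 FPKM in SCPs and 23.1 to 34.99 FPKM in RSCs. The part of these cell types in the ribosomal protein levels was not tested.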

How the data were processed

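The authors made stranded mRNA libraries from 3 SCP and 3 RSC samples, sequenced both ends and mapped the reads to rn6. The submitters' processing notes name FastQC 0.11.2, TopHat2 2.1.0 and Cufflinks 2.2.1. The authors deposited for each sample a table of transcripts in FPKM, normalized for transcript length and mapped fragments. The deposited coverage, a signal per transcript, gave the relative depth, 0.88 to 1.00 of the deepest sample in SCPs and 0.79 to 0.84 in RSCs. The tables hold no counts, so the absolute depth is unknown and no counting interval is given. Cufflinks gives each transcript an interval for its FPKM. Of 95 member transcripts, 25, 26 and 29 in SCPs and 36, 36 and 31 in RSCs had an FPKM outside their own interval. It flagged 15, 17 and 17 of them in SCPs and 9, 12 and 9 in RSCs as having low data. Single levels are uncertain to that extent. FPKM of named transcripts were summed by symbol, and 77 transcripts per table whose names had become dates were left out.

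The 13003 genes averaging 1 FPKM or more were tested two-sided in limma 3.58.1 (R 4.3.3), after taking log2(FPKM + 1). The fit had a variance trend but no block, and differences are RSC minus SCP. Fold changes are on this scale, which understates those of low genes. Calls used an unadjusted p under 0.01. The steps were tested on simulated data for this comparison, with independent noise for each gene. Of 200 among 13003 genes changed by a log2 of 3, 90.5% were recovered, and 1.17% of unchanged genes were called. That change is larger than the members' median of -0.56, and recovery of differences of that size was not simulated. Other tools were pandas 2.3.3, scipy 1.17.1 and matplotlib 3.10.9 in Python 3.11.15.

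The members and gene lists were chosen with earlier results of these data known. Named were the 3 stalk genes, the 10 members at each end of the order by log2 fold change, the 5 highest in mean FPKM, members listed at 0 in 1 sample and at 5 FPKM or more in another, members in a count of 5 or fewer, tested paralogs, and in other lists the 2 genes with the largest called change each way. Not every gene picked in this way is reported here. Rpl11, Rpl22 and the members given for their transcripts, locus or pseudogenes were named after their values were seen. Promoters were those of RefSeq on GRCr8, with 250 bases before and 50 from the start. Positions of genes are those of the tables on rn6. The alternatives tried were no filter, a filter at a mean of 5 FPKM, a pseudocount of 0.1, median-of-ratios scaling, quantile normalization, rescaling without globins, no variance trend, a replicate block, the highest transcript per gene, unnamed transcripts added, zeros as missing, adjusted p, other totals for the share and each sample left out.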

Additional observations from a re-analysis of the deposited data

How the results depend on the processing

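Between 42 and 67 members were higher in SCPs under the alternatives, all within 1.5 times the reported 63 and in the same direction. The share of all genes called was counted only in the reported fit, at 22.4%, and under median-of-ratios scaling, at 16.8%. One more alternative, unnamed transcripts added together with median-of-ratios scaling, was chosen after seeing the data and gave the 42. The number of members higher in RSCs was 1 in place of 0 under median-of-ratios scaling, quantile normalization and the added alternative. The members' median log2 fold change was -0.35, -0.39 and -0.29 under these 3. The mean share of FPKM in the members was 19.7% in SCPs without globins in the total, 12.3% and 10.4% in SCPs and RSCs over all FPKM, 24.6% and 18.0% without the top 100 other genes, and 15.4% and 11.9% with unnamed transcripts added. Leaving out each sample in turn gave 57 to 60 members higher in SCPs, 0 higher in RSCs and a median of -0.54 to -0.61. The SCP share was then 16.6% to 18.2% and the RSC share 12.9% to 13.1%.

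Over 658 alternative values for 35 members and paralogs, 558 kept direction and call, 62 lost the call, 20 gained it and 18 changed direction. The direction changed under median-of-ratios scaling for Rplp1 (0.081), Rps18 (0.15), Rpl30 (0.12) and Rpl41 (0.022), and under quantile normalization for Rps18 (0.19). With unnamed transcripts added it changed for Rplp1 (0.054) and Rpl27a (0.20). Under the added alternative it changed for Rplp1 (0.32), Rps18 (0.20), Rpl30 (0.18), Rpl41 (0.075), Rps10 (0.024), Rpl10a (0.024), Rps16 (0.17), Rpl24 (0.018), Rpl27a (0.47) and Rpl10l (0.020). The causes were not tested. Rpl10l ranged from -0.59 to 0.20 when each sample was left out, the latter without SCP replicate 1, and Rpl24 passed the threshold without RSC replicate 1 (-7.84). With a replicate block 59 members were higher in SCPs. Samples with the same number deviated with correlations of 0.04, -0.005 and 0.03 over genes, so the numbers were not taken as pairs. With 3 samples per group and unknown absolute depth, differences near the spread between samples could not be resolved.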
